A study of Rattus norvegicus with 28 samples.

Results

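The expression of integrins, ADAM proteases and ADAMTS proteases was examined in rat lung after mechanical ventilation, with and without lung injury. The genes were chosen by name: those whose symbol begins with Itga, with Itgb or Adam followed by a digit, or with Adamts, and whose normalised read count averaged at least 10 over the 28 libraries. Of 17002 genes in the deposited table, 49 had such a name and 46 met the minimum, while Adam22, Adam6 and Itga10 were under it. The 46 genes comprised 20 integrin chains, 3 proteins whose names refer to integrin tails (Itgb1bp1, Itgb1bp2 and Itgb3bp), 12 genes named Adam and 11 named Adamts. All 46 were among the 14908 genes tested. The leukocyte integrins Itgam, Itgal, Itgax and Itgb2 were kept apart from the rest.

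RNA of Sprague Dawley rats, taken from the right upper lobe of the lung, was selected for poly(A) tails and was sequenced with strand kept on a HiSeq 2000. The study set ventilation with variable tidal volumes against ventilation with constant tidal volumes, both volume-controlled. The group acute_noisy (n = 4) received variable tidal volumes and acute_VCV (n = 3) constant tidal volumes, both following an acute injury. Likewise chronic_noisy (n = 3) and chronic_VCV (n = 3) received variable and constant tidal volumes following a chronic injury, and healthy_noisy (n = 3) and healthy_VCV (n = 4) received them with uninjured lungs. The unventilated groups were control_chronic (n = 5), sampled 14 days after a chronic injury was induced, and control_blank (n = 3), which had neither injury nor ventilation. No unventilated group with an acute injury is among these samples, so each acute group differs from control_blank in injury and ventilation together. The injury model, the length of ventilation, and the animals' age are not given in the sources used here. Each library is labelled as a sample of its own, and nothing says which samples are separate animals, so p-values measure only the spread between these samples.

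Integrins are receptors of paired alpha and beta chains that bind matrix proteins or counter-receptors on other cells and link them to the cytoskeleton. ADAM proteins are membrane-bound metalloproteases, many of which release the outer part of growth factors, cytokine receptors and adhesion molecules, and ADAMTS proteins are secreted relatives that cut proteoglycans and process procollagens. In the lung, leukocyte integrins serve the adhesion and migration of neutrophils and macrophages, and epithelial integrins hold cells to the basement membrane and activate latent TGF-beta.

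Depth ranged from 6024093 to 31923838 reads per library. The library control_blank_016 was the lowest of all 28 for 22 of the 46 genes. For how many of all tested genes this library was the lowest was not counted. For most genes whose difference is given, calls against control_blank that need it are given without it as well. The labels number the samples in the series 12, 14, 15 and 18, and among the comparisons below acute_VCV against control_blank was the only one with both groups wholly in 1 number series. A gap between genes of long and short genomic span, the median log2 deviation of the longest of 4 equal classes minus that of the shortest, ran from -0.87 in control_blank_016 to 0.72 in chronic_noisy_084, and is taken up near the end because 23 of the 46 genes lie in the longest class. Alveolar epithelium markers, 9 of 10 in the table, summed to 296228 to 888167 and were at 0 in no group. In whole-lobe RNA, fewer cells of a type and less RNA per cell cannot be told apart.

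Against their unventilated groups, all 4 groups of ventilated lungs with acute injury or none had more of these genes higher than lower. Log2 differences were fitted over all 28 libraries with limma, and a gene was called at a Benjamini-Hochberg adjusted p under 0.05 over all 14908 genes. In acute_noisy against control_blank 28 of 46 were higher and 5 lower, with 31.3% of all genes higher, 28.4% lower and 59.8% called. In acute_VCV against control_blank 17 were higher and 2 lower, with 20.6% of all genes higher, 16.7% lower and 37.3% called, and the count of 19 became 12 without acute_VCV_049. In healthy_VCV against control_blank 23 were higher and 6 lower, with 29.3% of all genes higher, 28.1% lower and 57.4% called. In healthy_noisy against control_blank 13 were higher and 4 lower, with 17.5% of all genes higher, 14.6% lower and 32.1% called, and the count of 17 became 7 without control_blank_016, 7 without healthy_noisy_029 and 11 without healthy_noisy_078. The shares called among the 46 genes, 71.7% in acute_noisy, 41.3% in acute_VCV, 63.0% in healthy_VCV and 37.0% in healthy_noisy, were thus not far above the shares among all genes.

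The direction was uneven. The median log2 difference over the 46 genes was 0.97 in acute_noisy, 0.62 in acute_VCV, 0.75 in healthy_VCV and 0.42 in healthy_noisy, each against control_blank, where the medians over all tested genes were 0.03, 0.07, -0.03 and 0.01. After chronic injury, chronic_noisy against control_chronic had 17 higher and 4 lower, with 19.1% of all genes higher, 18.1% lower and 37.2% called and medians of 0.68 over the 46 and 0.00 over all genes; the count of 21 became 13 without chronic_noisy_084. The comparison of chronic_VCV with control_chronic had 8 higher and 3 lower, with 6.89% of all genes higher, 7.90% lower and 14.8% called and medians of 0.17 and 0.02. That count of 11 became 5 without chronic_VCV_069 and 6 without chronic_VCV_073. Chronic injury by itself, control_chronic against control_blank, had 5 higher and 3 lower, with 14.9% of all genes called. Of those 8 calls, 1 was left without control_blank_016 and 5 without each of control_chronic_113, control_chronic_115 and control_chronic_117, whereas 14 genes were called without control_blank_074. Those without overlap included Adamts17 (1.65 ± 0.45, adjusted p = 0.0203), Itgb2 (0.80 ± 0.25, adjusted p = 0.0341) and Itga11 (-0.98 ± 0.30, adjusted p = 0.0343), which without control_blank_016 were at 1.09 (adjusted p = 0.259), 0.41 (0.417) and -0.91 (0.209). Adamts17 was also lost without control_blank_021 (1.65, 0.054), Itgb2 without control_chronic_113 (0.81, 0.0524), control_chronic_114 (0.77, 0.06) or control_chronic_115 (0.78, 0.0589), and Itga11 without control_blank_021 (-0.93, 0.0954), control_chronic_113 (-0.87, 0.0754) or control_chronic_116 (-0.79, 0.0705). These comparisons share control samples, so their results are not independent of each other.

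**Figure D1:**
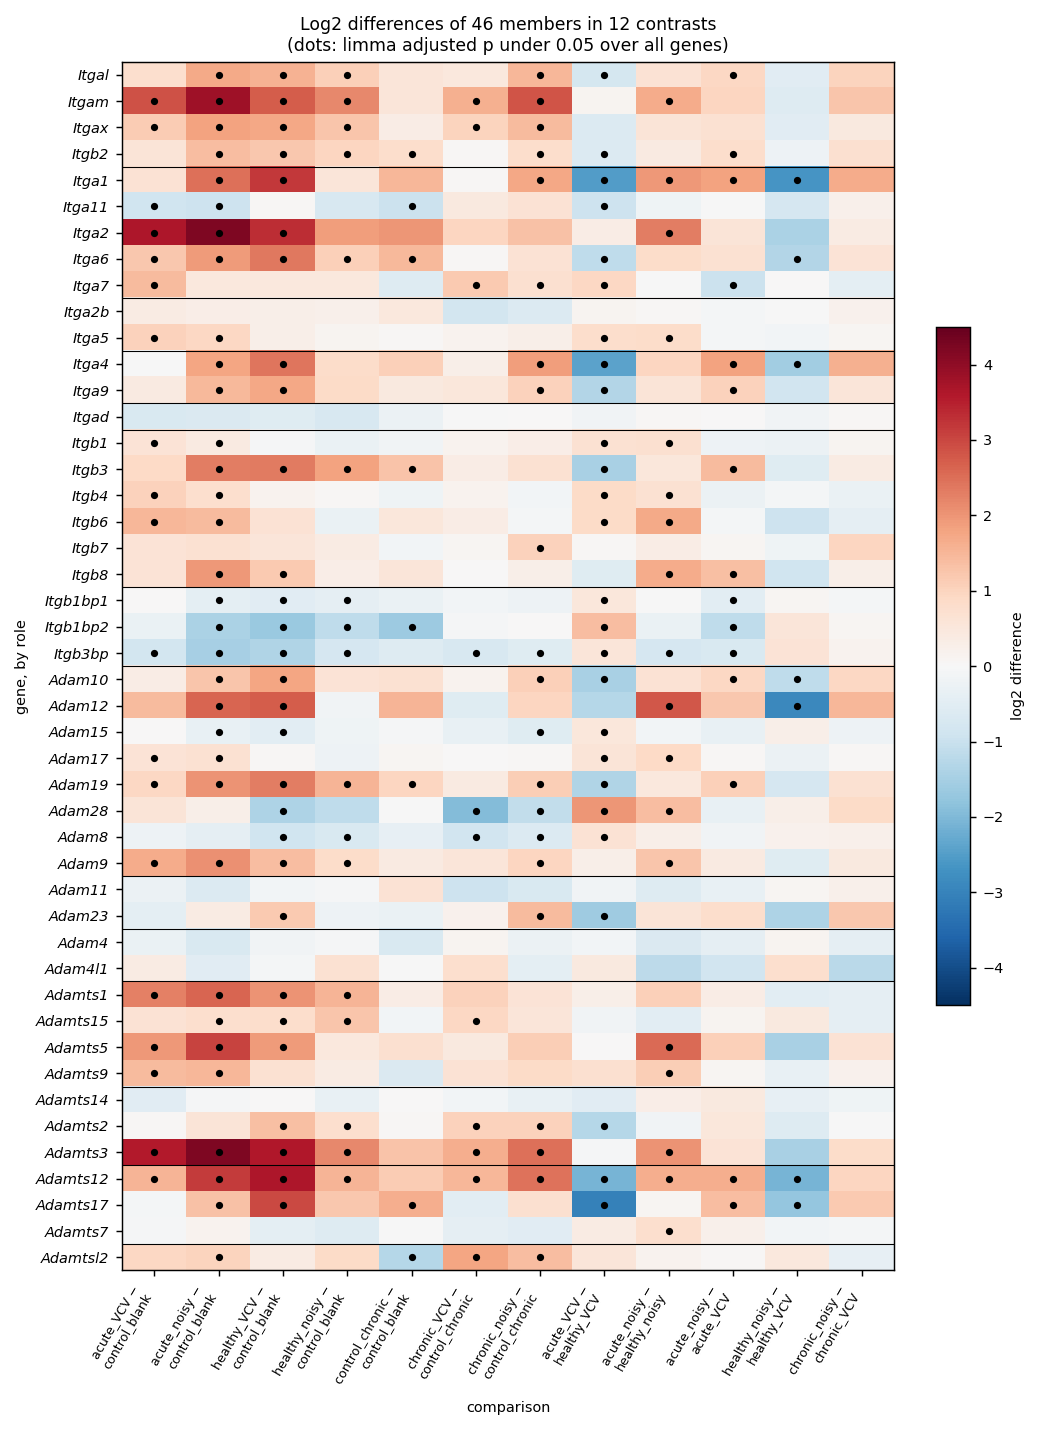
Log2 differences of the 46 genes (rows, ordered by role) in 12 comparisons of 2 groups (columns), with colour giving the difference on the log2(value + 1) scale and a dot marking an adjusted p under 0.05. Dots are most frequent in acute_noisy minus control_blank, where 33 of 46 genes have one, and are missing in chronic_noisy minus chronic_VCV.

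The 4 leukocyte integrins had higher medians in every ventilated group than in its unventilated group, and all 4 were called higher in acute_noisy, healthy_VCV and healthy_noisy against control_blank and in chronic_noisy against control_chronic. Itgam, which pairs with Itgb2 to form the neutrophil and macrophage receptor Mac-1, had the widest range. Its normalised count was 1468, 3486, 2892 and 974 in acute_noisy and 475, 1084 and 1866 in acute_VCV, against 56.7, 214 and 207 in control_blank. No library of either acute group came near the control_blank values. The log2 difference was 3.83 ± 0.54 (SE; adjusted p = 5.08e-06) for acute_noisy, a 14.2-fold change, and 2.85 ± 0.57 (adjusted p = 0.000503) for acute_VCV. Uninjured lungs had 912, 610 and 405 in healthy_noisy and 623, 467, 2011 and 1126 in healthy_VCV, also above each control_blank library. Itgam rose by 2.72 ± 0.54 in healthy_VCV (adjusted p = 0.000187) and by 2.15 ± 0.57 in healthy_noisy (adjusted p = 0.00712) relative to control_blank. Without control_blank_016 the healthy_noisy difference was 1.53 (adjusted p = 0.0723).

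Following chronic injury Itgam was at 1338, 925 and 2314 in chronic_noisy and at 678, 483 and 653 in chronic_VCV, against 200, 258, 257, 187 and 120 in control_chronic. The 3 groups did not overlap with each other. The difference from control_chronic was 2.84 ± 0.51 for chronic_noisy (adjusted p = 0.000395) and 1.60 ± 0.51 for chronic_VCV (adjusted p = 0.0382). The chronic_VCV call was lost in 6 of 8 fits that left out 1 library, with differences of 1.51 (adjusted p = 0.0936) without chronic_VCV_067, 1.75 (0.072) without chronic_VCV_069, 1.53 (0.107) without chronic_VCV_073, 1.60 (0.0576) without control_chronic_113, 1.58 (0.0655) without control_chronic_116 and 1.42 (0.0768) without control_chronic_117. Acute injury under variable ventilation also exceeded uninjured lungs under the same mode, by 1.68 ± 0.54 in acute_noisy against healthy_noisy (adjusted p = 0.0252). That call was lost without acute_noisy_047 (1.40, adjusted p = 0.104), acute_noisy_050 (1.49, 0.0883), healthy_noisy_061 (1.68, 0.0775) or healthy_noisy_078 (1.38, 0.0897).

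Itgax, the alpha chain of the receptor p150,95 on macrophages and dendritic cells, was at 1533, 1053, 1479 and 758 in acute_noisy and 614, 677 and 918 in acute_VCV, against 158, 476 and 479 in control_blank. Every acute library lay above the control_blank ones. The difference was 1.81 ± 0.33 in acute_noisy (adjusted p = 7.72e-05) and 1.13 ± 0.35 in acute_VCV (adjusted p = 0.0142); the acute_VCV call was lost without control_blank_016 (0.60, adjusted p = 0.156) and without acute_VCV_049 (0.96, adjusted p = 0.0764). It also rose by 1.74 ± 0.33 in healthy_VCV (adjusted p = 0.000118) and by 1.43 ± 0.31 in chronic_noisy against control_chronic (adjusted p = 0.00167). Itgal, the alpha chain of LFA-1, which lymphocytes and other leukocytes use to bind ICAMs, had 4332, 6401, 6093 and 2517 in acute_noisy and 1518, 2566 and 3397 in acute_VCV, against 742, 1870.8 and 1938 in control_blank. All acute_noisy libraries were above control_blank, while acute_VCV overlapped with it and was not called. Itgal rose by 1.71 ± 0.33 in acute_noisy (adjusted p = 0.000157), by 1.57 ± 0.33 in healthy_VCV (adjusted p = 0.000368), both against control_blank, and by 1.48 ± 0.32 in chronic_noisy against control_chronic (adjusted p = 0.0014).

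Itgb2, the beta chain that these 3 alpha chains share, was at 5589, 5884, 5741 and 3129 in acute_noisy and 2021, 3299 and 3504 in acute_VCV, against 1112, 2617 and 2321 in control_blank. Again acute_noisy lay wholly above control_blank and acute_VCV did not. The difference was 1.38 ± 0.26 in acute_noisy (adjusted p = 0.000103) and 1.21 ± 0.26 in healthy_VCV (adjusted p = 0.000392). In chronic_noisy it had 5358, 4978 and 6628, against 3130, 3549, 3472, 3467 and 2845 in control_chronic, a difference of 0.77 ± 0.25 (adjusted p = 0.0175) that without chronic_noisy_084 was 0.65 (adjusted p = 0.102). In healthy_noisy against control_blank the calls of Itgax (1.25 ± 0.35, adjusted p = 0.0101), Itgal (1.06 ± 0.36, adjusted p = 0.0264) and Itgb2 (0.98 ± 0.28, adjusted p = 0.0104) all needed control_blank_016, without which the differences were 0.72 (adjusted p = 0.117), 0.61 (0.228) and 0.59 (0.115). Those of Itgal and Itgb2 were also lost without healthy_noisy_029, at 0.86 (adjusted p = 0.123) and 0.78 (0.0703), and that of Itgal without healthy_noisy_061 (1.03, 0.0583).

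Markers of neutrophils were also higher in ventilated than in unventilated lungs. The summed level of 11 neutrophil markers in the table, of 14 listed, was 25566 to 105652 in acute_noisy, 38318 to 150615 in acute_VCV and 13210 to 38615 in the other ventilated groups, against 1697 to 3969 in control_chronic and 3290 to 4241 in control_blank. Thus every ventilated library exceeded every unventilated one. Of the 11, all were higher in both acute groups against control_blank, and none was at 0 in a whole group. Between ventilated groups the order was not that of the integrins: the median neutrophil sum was 111964 in acute_VCV and 26523 in healthy_VCV, whereas the 4 integrins summed to a median of 7626 in acute_VCV and 11029 in healthy_VCV. Of 9 macrophage and monocyte markers in the table, of 14 listed, 6 were higher and 1 lower in acute_noisy and 6 higher and 0 lower in acute_VCV against control_blank. Among them Ccr2, a monocyte chemokine receptor, was 8.72-fold in acute_noisy (adjusted p = 7.32e-05) and 3.64-fold in acute_VCV (adjusted p = 0.0182), and Cd163, a scavenger receptor of macrophages, 7.75-fold (adjusted p = 0.000121) and 3.75-fold (adjusted p = 0.0154). The sums of the 9 were 135512 to 197288 in acute_noisy and 177375 to 193088 in acute_VCV, against 195102 to 229569 in control_blank, so that acute_noisy overlapped with control_blank and acute_VCV lay wholly below it. Such a sum weighs the most abundant markers most, and here it did not follow the direction of most of the 9. The part of these cells in the integrin differences was not tested.

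**Figure D2:**
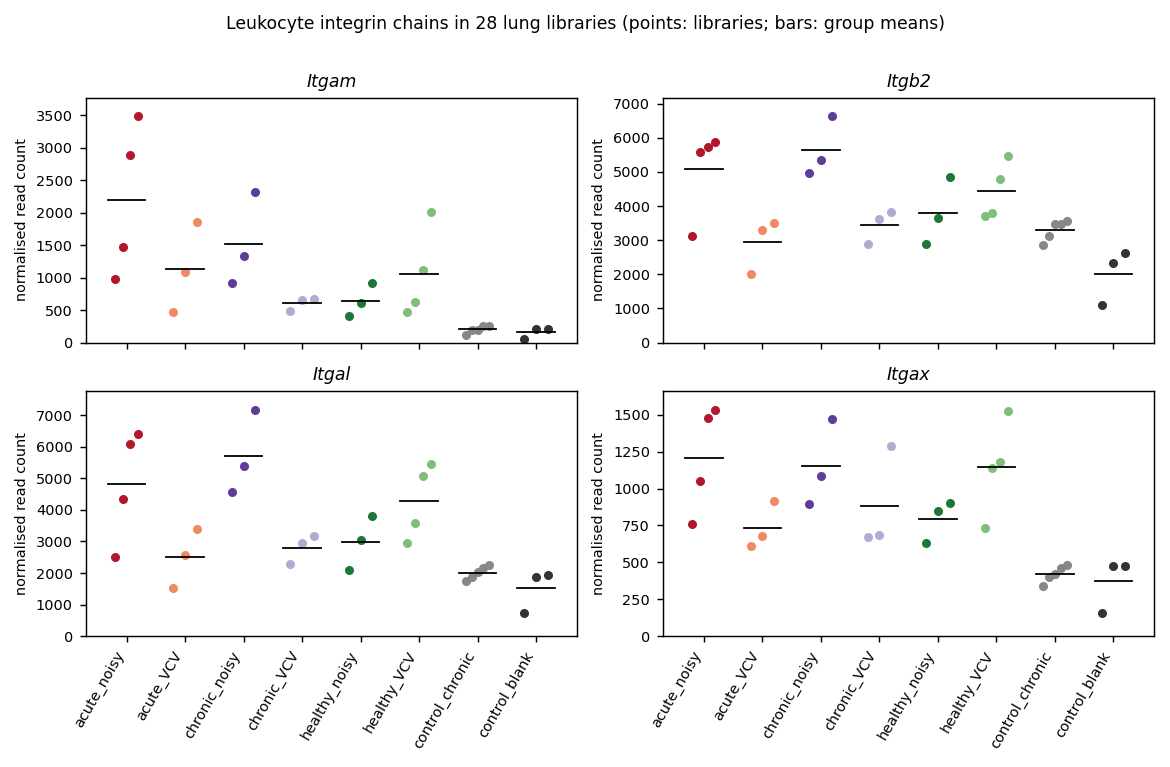
Normalised read counts of Itgam, Itgal, Itgax and Itgb2 in each of the 28 libraries (points, linear axis from 0) with group means (bars), ventilated groups left of the unventilated ones they were set against. Itgam lies between 405 and 3486 in ventilated libraries and between 56.7 and 258 in unventilated ones.

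The sequence just before the start of Itgam and Itgax is shown because these neighbouring genes, which both encode partners of Itgb2, were called higher in both acute groups. Both are 250 bases from RefSeq on build GRCr8, plus strand, at chr1:192089342-192089591 and chr1:192149799-192150048, and run 5′ to 3′ up to the base before the start. Capitals mark matches, on either strand, to any of 4 motifs. The letters GAGGAA are the core bound by PU.1, a factor of myeloid cells. The letters GGGCGG are the core bound by the general factor Sp1. The letters TATAAA are the TATA box, and TGANTCA is the motif of AP-1.
Itgam: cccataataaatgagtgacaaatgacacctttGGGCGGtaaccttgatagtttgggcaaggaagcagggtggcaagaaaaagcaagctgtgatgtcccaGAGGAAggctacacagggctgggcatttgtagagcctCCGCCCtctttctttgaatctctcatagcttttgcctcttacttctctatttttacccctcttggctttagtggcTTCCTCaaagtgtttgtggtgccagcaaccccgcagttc
Itgax: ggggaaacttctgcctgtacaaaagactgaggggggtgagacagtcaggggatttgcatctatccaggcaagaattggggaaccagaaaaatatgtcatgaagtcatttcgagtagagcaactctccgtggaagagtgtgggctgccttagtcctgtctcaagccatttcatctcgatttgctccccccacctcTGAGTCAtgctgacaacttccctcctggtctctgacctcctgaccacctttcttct
The Itgam window held 2 PU.1 and 2 Sp1 matches, and the Itgax window 1 AP-1 match 56 bases before the start. Over 33469 rat windows of the same length, 23.3% held the PU.1 motif, 30.5% that of Sp1, 6.34% that of AP-1 and 12.9% the TATA box. Of the 32 genes here that have 1 window, the shares were 21.9%, 59.4%, 6.25% and 15.6%. In the 4 windows printed in this text, 0 pairs of marked matches overlapped. The 4 motifs were kept from 14 searched, and the choice was made after the matches were seen. Of the 10 left unmarked, an NF-kB motif of 10 letters, the STAT motif TTCCNGGAA, the C/EBP palindrome TTGCGCAA and the CRE motif TGACGTCA were in 0 of the 32 windows. A shorter NF-kB motif, GGGNNTTCC, was in 6.25% of the 32 windows and 5.09% of all windows. The TEAD motif GGAATG was in 9.38% and 12.1%. The SMAD motif CAGACA was in 15.6% and 17.2%. A loose C/EBP motif, TTNNGNAA, was in 31.2% and 37.2%. The E-box CANNTG was in 59.4% and 65.5%, and its form CACGTG in 3.12% and 5.59%. These are matches of letters and not known sites.

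Among integrins of tissue cells, Itga5, Itgb1, Itgb4 and Itgb6, together with the sheddase Adam17, were called higher in both acute groups against control_blank and also against uninjured lungs ventilated in the same mode. These 5 genes were picked out after their values were seen; 4.25% of all tested genes met the same 4 conditions. With the trend over gene span removed, the genes meeting all 4 were Adam17, Adam9, Adamts9, Itga5, Itgb4 and Itgb6, and with quantile normalisation only Itga5 and Itgb4. Itga5, the alpha chain of the fibronectin receptor, was at 2644, 5601, 4478 and 2894 in acute_noisy and 3551, 3931 and 4476 in acute_VCV. It was at 2443, 1868 and 2060 in healthy_noisy, 2366, 2335, 2389 and 2167 in healthy_VCV, and 1349, 2351 and 2290 in control_blank. Each acute library was above each library of these 3 groups. The difference was 0.94 ± 0.21 (adjusted p = 0.000672) for acute_noisy and 1.03 ± 0.23 (adjusted p = 0.00114) for acute_VCV against control_blank, and 0.78 ± 0.21 (adjusted p = 0.00384) for acute_VCV against healthy_VCV. Against healthy_noisy, acute_noisy was higher by 0.82 ± 0.21 (adjusted p = 0.00896), a call lost without acute_noisy_047 (0.62, adjusted p = 0.0501) or healthy_noisy_061 (0.73, adjusted p = 0.0547).

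The 250 bases before the start of Itga5 (RefSeq, GRCr8, chr7:136381306-136381555, minus strand) held 1 Sp1 and 1 PU.1 match, marked in capitals as above.
Itga5: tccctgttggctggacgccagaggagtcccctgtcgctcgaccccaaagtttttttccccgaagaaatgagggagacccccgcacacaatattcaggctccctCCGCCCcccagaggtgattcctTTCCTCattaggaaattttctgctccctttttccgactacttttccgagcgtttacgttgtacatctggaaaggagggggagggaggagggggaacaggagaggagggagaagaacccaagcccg

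Itgb1, the beta chain of most matrix-binding integrins and the partner of Itga5, was at 19410, 28837, 28933 and 19248 in acute_noisy and 25139, 28136 and 29037 in acute_VCV, against 15642, 18930 and 18821 in control_blank. All 7 acute libraries were above all control_blank libraries. It rose by 0.63 ± 0.15 in acute_VCV (adjusted p = 0.00209) and by 0.41 ± 0.14 in acute_noisy (adjusted p = 0.0136). The acute_noisy call was lost without acute_noisy_047 (0.32, adjusted p = 0.0602), acute_noisy_050 (0.32, 0.0613) or control_blank_016 (0.32, 0.088), with quantile normalisation (0.21, adjusted p = 0.149) or the trend over gene span removed (0.25, 0.083), and in a fit of these 2 groups alone (adjusted p = 0.146). Against the uninjured groups of the same mode Itgb1 was higher by 0.72 ± 0.14 in acute_noisy (adjusted p = 0.00135, and 0.48 with quantile normalisation) and by 0.67 ± 0.14 in acute_VCV (adjusted p = 0.000328).

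Itgb4, which pairs with Itga6 in the hemidesmosomes of epithelium, was at 1531, 1382, 1132 and 1364 in acute_noisy and 1684, 1264 and 2009 in acute_VCV, against 863, 770 and 761 in control_blank. No acute library was as low as the highest control_blank one. It rose by 0.75 ± 0.19 in acute_noisy (adjusted p = 0.00145) and by 1.03 ± 0.20 in acute_VCV (adjusted p = 0.00036). The difference from healthy_VCV was 0.86 ± 0.19 for acute_VCV (adjusted p = 0.000499), and that from healthy_noisy 0.69 ± 0.19 for acute_noisy (adjusted p = 0.0105), which without healthy_noisy_061 was 0.58 (adjusted p = 0.0712). Itgb6, the epithelial chain of the alpha-v beta-6 integrin that activates latent TGF-beta, was at 2081.9, 2695, 2510 and 1147 in acute_noisy and 1997, 1513 and 3165 in acute_VCV, against 557, 664 and 1143 in control_blank. The lowest acute library, at 1147, was close to the highest control_blank library. Itgb6 rose by 1.42 ± 0.33 in acute_noisy (adjusted p = 0.000854) and by 1.50 ± 0.35 in acute_VCV (adjusted p = 0.00192) relative to control_blank, and by 1.72 ± 0.33 in acute_noisy relative to healthy_noisy (adjusted p = 0.0013). Its levels in acute_VCV and healthy_VCV overlapped, and the difference of 0.85 ± 0.33 (adjusted p = 0.0325) was lost without any of acute_VCV_040 (0.90, adjusted p = 0.0573), acute_VCV_049 (0.57, 0.202), healthy_VCV_025 (0.85, 0.054), healthy_VCV_057 (0.72, 0.0976) or healthy_VCV_062 (0.81, 0.0651) and with quantile normalisation (0.75, 0.058), and was 1.55 (adjusted p = 0.000115) with the trend over gene span removed.

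Between acute_VCV and healthy_VCV, 12 of the 46 genes were higher and 14 lower, with 52.5% of all genes called and medians of -0.01 over the 46 and over all genes. With the trend over gene span removed the split was 12 higher and 7 lower. The largest log2 differences downward were those of Adamts17 (-3.05 ± 0.47, SE, adjusted p = 1.28e-05), Itga1 (-2.53 ± 0.64, adjusted p = 0.00194), Itga4 (-2.42 ± 0.42, adjusted p = 5.59e-05) and Adamts12 (-2.11 ± 0.53, adjusted p = 0.00206). Upward they were those of Adam28 (1.99 ± 0.44, adjusted p = 0.000592), Itgb1bp2 (1.38 ± 0.34, adjusted p = 0.00181), Itga7 (0.95 ± 0.22, adjusted p = 0.00101) and Itgb4 (0.86 ± 0.19, adjusted p = 0.000499). Between acute_noisy and healthy_noisy, 17 of the 46 genes were higher and 1 lower, with 26.7% of all genes called. The count of 18 became 8 without acute_noisy_047, without acute_noisy_050 or without healthy_noisy_061 and 9 without healthy_noisy_029, and no gene was called in a fit of these 2 groups alone or with the libraries of number series 15 only. With the number series as a covariate 4 were called. Within acute_noisy, 28 of 46 genes were higher in both libraries of series 14 than in both of series 15, and 4 were lower. The same count over all genes was not made, so it is not known whether these genes stand out. The series 14 libraries also had the higher span gap, 0.29 and 0.36 against 0.09 and -0.17. The groups also share a number series in healthy_noisy against healthy_VCV (15) and in acute_VCV against control_blank (12). In the other comparisons of 2 groups they share none, and number series and group cannot be told apart. Of the genes called between acute_noisy and healthy_noisy, Adam12 had a difference of 2.81 ± 0.80 (adjusted p = 0.0138), Adamts3 of 2.03 ± 0.51 (adjusted p = 0.00743) and Itgb3bp of -0.76 ± 0.21 (adjusted p = 0.013). Adam12 was lost without acute_noisy_047 (2.33, adjusted p = 0.0684), acute_noisy_050 (2.40, 0.0613) or healthy_noisy_029 (2.43, 0.0687), Adamts3 without healthy_noisy_029 (1.67, 0.0509), and Itgb3bp without acute_noisy_050 (-0.61, 0.063) or healthy_noisy_061 (-0.73, 0.0561).

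**Figure D3:**
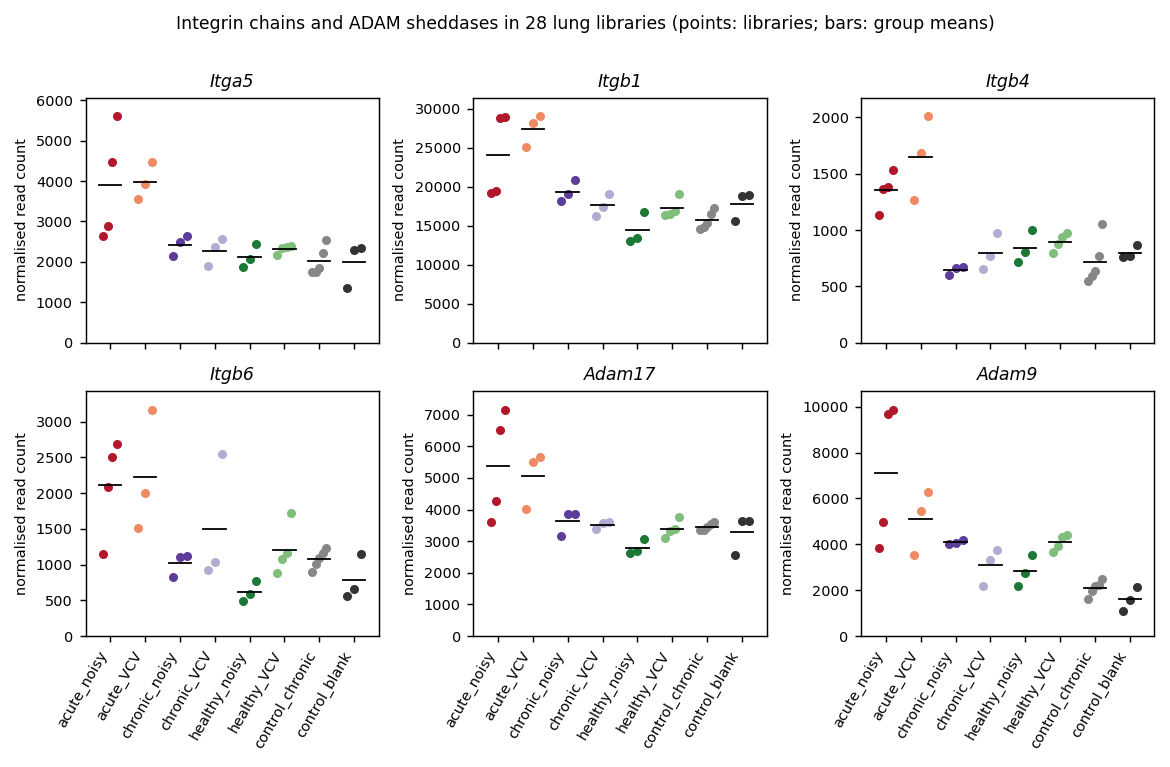
Normalised read counts of Itga5, Itgb1, Itgb4, Itgb6, Adam17 and Adam9 in each of the 28 libraries (points) with group means (bars). The acute groups stand on the left, and for Itgb1 all their libraries, from 19248 up, lie above those of control_blank.

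The collagen and laminin receptors moved in part. Of Itga1, Itga2, Itga6, Itga7 and Itga11, 3 were higher and 1 lower in each acute group against control_blank, beside 59.8% of all genes called in acute_noisy and 37.3% in acute_VCV. Itga2, a collagen receptor of epithelium and platelets, was at 171, 991, 1001 and 213 in acute_noisy, 97.8, 258 and 992 in acute_VCV and 181, 228, 391 and 186 in healthy_VCV, against 3.24, 31.5 and 95.1 in control_blank. The groups did not overlap with control_blank, though acute libraries differed among themselves by far. The differences were 4.21 ± 0.83 (adjusted p = 0.000177), 3.63 ± 0.89 (adjusted p = 0.00265) and 3.31 ± 0.83 (adjusted p = 0.00171). They rest in part on control_blank_016, without which acute_VCV differed by 2.39 (adjusted p = 0.0325) and healthy_VCV by 2.07 (adjusted p = 0.0364), and the acute_VCV call was lost in a fit of its 2 groups alone (adjusted p = 0.0602). Itga1, a collagen receptor of mesenchymal and endothelial cells, was at 457, 2776, 2582 and 359 in acute_noisy, 152, 325 and 510 in acute_VCV and 2004, 1590, 1879 and 1383 in healthy_VCV, against 82.7, 129 and 608 in control_blank. High values lay in healthy_VCV, where healthy_VCV_062, at 1383, was of number series 15 and the others of series 14. High values lay too in 2 of the 4 acute_noisy libraries, those of series 14. They also lay in chronic_noisy, wholly of series 14, at 1108, 2069 and 2391, against 658, 688, 432, 385 and 562 in control_chronic. The call between these 2 chronic groups was lost with the trend over gene span removed (1.34, adjusted p = 0.0556). Itga1 rose by 3.18 ± 0.64 in healthy_VCV (adjusted p = 0.000217) and by 2.47 ± 0.64 in acute_noisy (adjusted p = 0.00203), the acute_noisy call being lost in a fit of the 2 groups alone (adjusted p = 0.0602).

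Itga7, the laminin receptor of muscle, went another way. It was at 714, 729, 574 and 969 in acute_noisy and 1324, 1412 and 1526 in acute_VCV, against 828, 366 and 489 in control_blank. All acute_VCV libraries exceeded those of both other groups. It rose by 1.42 ± 0.24 in acute_VCV (adjusted p = 8.18e-05) and was not called in acute_noisy. In chronic injury it was at 742, 478 and 574 in chronic_noisy and 683, 878 and 868 in chronic_VCV, against 429, 319, 299, 442 and 320 in control_chronic. The differences were 1.17 ± 0.21 in chronic_VCV (adjusted p = 0.000979) and 0.72 ± 0.21 in chronic_noisy (adjusted p = 0.0109), that of chronic_noisy being 0.55 (adjusted p = 0.0763) without chronic_noisy_075. Itga11, a collagen receptor of fibroblasts, was the one lower, at 77.6, 108, 75.9 and 123 in acute_noisy and 138, 88.0 and 71.2 in acute_VCV, against 196, 191 and 155 in control_blank. It was lower by -0.93 ± 0.32 in acute_noisy (adjusted p = 0.0152) and -0.91 ± 0.34 in acute_VCV (adjusted p = 0.0386), calls that were both lost without control_blank_016 (-0.87, adjusted p = 0.0538, and -0.85, adjusted p = 0.102). In acute_VCV it was also lost without acute_VCV_045 (-0.85, 0.103), acute_VCV_049 (-0.70, 0.18) or control_blank_021 (-0.86, 0.0929), with quantile normalisation (-0.82, 0.0558) and in a fit of the 2 groups alone (0.0605).

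Integrin chains of leukocytes and other cells that bind VCAM-1 or fibronectin, Itga4 and Itga9, were both higher in acute_noisy, healthy_VCV and chronic_noisy against their unventilated groups, and neither was called in acute_VCV, healthy_noisy or chronic_VCV. Itga4 was at 317, 696, 951 and 213 in acute_noisy, 91.7, 156 and 152 in acute_VCV, 257, 205 and 243 in healthy_noisy and 712, 522, 945 and 678 in healthy_VCV, against 71.3, 112 and 288 in control_blank. It rose by 1.79 ± 0.42 in acute_noisy (adjusted p = 0.000996) and by 2.40 ± 0.42 in healthy_VCV (adjusted p = 6.17e-05) relative to control_blank. In chronic injury it was at 760, 1123 and 1268 in chronic_noisy and 269, 366 and 386 in chronic_VCV, against 321, 454, 245, 244 and 196 in control_chronic, and rose by 1.87 ± 0.41 in chronic_noisy (adjusted p = 0.0015). The span gap was also highest in healthy_VCV and chronic_noisy. Itga4, with the trend over gene span removed, differed by 1.48 in acute_noisy (adjusted p = 0.00177), 1.93 in healthy_VCV (adjusted p = 0.000207) and 1.58 in chronic_noisy (adjusted p = 0.00261), all still called.

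Itgb3, the beta chain of the platelet fibrinogen receptor and of the vitronectin receptor, was at 78.5, 89.4, 130 and 84.3 in acute_noisy, 21.1, 58.7 and 33.3 in acute_VCV and 94.4, 105, 98.1 and 86.9 in healthy_VCV, against 5.67, 27.7 and 36.8 in control_blank. All acute_noisy and healthy_VCV libraries were above control_blank, while acute_VCV overlapped with it. The difference was 2.29 ± 0.40 in acute_noisy (adjusted p = 5.74e-05) and 2.33 ± 0.40 in healthy_VCV (adjusted p = 5.07e-05); without control_blank_016 that of acute_noisy was 1.52 (adjusted p = 0.000657). In healthy_noisy it was 1.79 ± 0.43 (adjusted p = 0.00367), a call lost in a fit of the 2 groups alone (adjusted p = 0.0848). Itgb8, which pairs with alpha-v and also activates latent TGF-beta, was at 79.4, 239, 427 and 59.9 in acute_noisy, against 34.0, 34.3 and 44.7 in control_blank, and rose by 1.96 ± 0.46 (adjusted p = 0.000941). Of the 6 beta chains other than Itgb2, 5 were higher in acute_noisy, 3 in acute_VCV, 2 in healthy_VCV and 1 in healthy_noisy against control_blank, and none was lower, beside 31.3%, 20.6%, 29.3% and 17.5% of all genes higher. Itgb7, the partner of Itga4 on lymphocytes, was called only in chronic_noisy against control_chronic among the 12 comparisons of 2 groups. Itga2b, the platelet alpha chain, ranged from 206 to 750 over all libraries and Itgad, a further leukocyte alpha chain, from 76.2 to 358, and neither was called in any of the 12.

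The 3 genes that bear an integrin in their name without being a chain, Itgb1bp1 among them, were lower in acute_noisy, healthy_VCV and healthy_noisy against control_blank, and 1 of the 3 was in acute_VCV. Of all genes, 28.4%, 28.1%, 14.6% and 16.7% were lower in these comparisons, in that order. In acute_VCV against healthy_VCV all 3 were higher, beside 26.1% of all genes. Itgb1bp1 differed by -0.44 ± 0.13 in acute_noisy (adjusted p = 0.00468, and 0.0621 in a fit of the 2 groups alone) and by -0.50 ± 0.13 in healthy_VCV (adjusted p = 0.00195). The healthy_noisy call of Itgb1bp1 (-0.42 ± 0.14, adjusted p = 0.0229) was lost without control_blank_016 (-0.32, adjusted p = 0.131), healthy_noisy_029 (-0.39, 0.0747) or healthy_noisy_078 (-0.39, 0.0705). Itgb1bp2, melusin, a muscle protein that binds the tail of the beta-1 chain, was at 32.5, 61.3, 43.0 and 67.2 in acute_noisy and 159, 97.6 and 83.0 in acute_VCV, against 115.9, 142 and 146 in control_blank. Only acute_VCV overlapped with control_blank, and the difference was -1.43 ± 0.34 in acute_noisy (adjusted p = 0.00113). It was also lower in healthy_VCV (-1.67 ± 0.34, adjusted p = 0.000278) and control_chronic (-1.62 ± 0.33, adjusted p = 0.00469). The 6 heart muscle markers in the table summed to 231 to 8337 in acute_noisy, 6061 to 14886 in acute_VCV, 1739 to 9106 in healthy_VCV and 880 to 1221 in control_chronic, against 9427 to 16874 in control_blank, and their part in the values of Itgb1bp2 and Itga7 was not tested. Itgb3bp, a centromere protein also known to bind the beta-3 tail, was at 53.2, 48.0, 32.9 and 50.1 in acute_noisy, 87.2, 66.96 and 69.3 in acute_VCV and 51.4, 44.1, 50.8 and 53.7 in healthy_VCV, against 148, 103 and 145 in control_blank. All libraries of the 3 ventilated groups were below control_blank. It was lower by -1.50 ± 0.21 in acute_noisy (adjusted p = 5.47e-06), -0.81 ± 0.23 in acute_VCV (adjusted p = 0.00731) and -1.37 ± 0.21 in healthy_VCV (adjusted p = 1.51e-05), the acute_VCV call being lost in a fit of its 2 groups alone (adjusted p = 0.0595). In healthy_noisy Itgb1bp2 was lower by -1.14 ± 0.37 (adjusted p = 0.0215), a call lost without control_blank_021 (-1.10, 0.059), healthy_noisy_029 (-1.12, 0.0621) or healthy_noisy_078 (-0.87, 0.113). Itgb3bp was lower there by -0.75 ± 0.23 (adjusted p = 0.0154), a call lost without control_blank_016 (-0.65, 0.0771) or healthy_noisy_029 (-0.69, 0.0607).

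Among the 8 ADAM proteins with an active protease, 5 were higher and 1 lower in acute_noisy, 3 higher and 0 lower in acute_VCV, 4 higher and 3 lower in healthy_VCV and 2 higher and 1 lower in healthy_noisy, each against control_blank. Of all genes 59.8%, 37.3%, 57.4% and 32.1% were called in these 4 comparisons, and the counts in acute_VCV and healthy_noisy, 3 of 8 each, are near such shares. Adam9, which cuts growth factor precursors and adhesion proteins, was called higher in all 4. It was at 4986, 9856, 9696 and 3848 in acute_noisy and 3518, 5473 and 6269 in acute_VCV, and at 2736, 2168 and 3549 in healthy_noisy and 3674, 3906, 4426 and 4314 in healthy_VCV. Control_blank libraries had 1096, 1592 and 2160, below each of the 14 ventilated ones. The difference was 2.07 ± 0.28 in acute_noisy (adjusted p = 3.83e-06), 1.67 ± 0.30 in acute_VCV (adjusted p = 0.000193), 0.83 ± 0.30 in healthy_noisy (adjusted p = 0.0392) and 1.39 ± 0.28 in healthy_VCV (adjusted p = 0.000255). Fits that left out 1 library are not given for these 4 calls, of which that in healthy_noisy was nearest the threshold. Adam9 also rose by 1.24 ± 0.28 in acute_noisy relative to healthy_noisy (adjusted p = 0.00394), and by 0.98 ± 0.27 in chronic_noisy, at 4010, 4042 and 4208, relative to control_chronic, at 1966.9, 2209, 2206, 1622 and 2467 (adjusted p = 0.00753).

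Adam17, the TNF-converting enzyme, was at 4285, 7147, 6503 and 3605 in acute_noisy and 4012, 5517 and 5669 in acute_VCV, against 2573, 3651 and 3643 in control_blank. The lowest acute_noisy library lay within the control_blank range and all acute_VCV libraries lay above it. The differences were 0.67 ± 0.18 (adjusted p = 0.00238) in acute_noisy, where the value was 0.42 (adjusted p = 0.0166) with the trend over gene span removed, and 0.62 ± 0.19 (adjusted p = 0.0121) in acute_VCV. The acute_VCV call was lost without acute_VCV_045 (0.55, adjusted p = 0.055), acute_VCV_049 (0.54, 0.0672) or control_blank_016 (0.46, 0.0885) and with quantile normalisation (0.41, 0.0517), and both calls in fits of their 2 groups alone (adjusted p = 0.0757 and 0.0591). Adam17 was higher in acute_noisy than in healthy_noisy, at 2633, 2705 and 3057, by 0.89 ± 0.18 (adjusted p = 0.00161) with no overlap. It was higher in acute_VCV than in healthy_VCV, at 3309, 3095, 3775 and 3390, by 0.57 ± 0.18 (adjusted p = 0.00973), which without acute_VCV_049 was 0.48 (adjusted p = 0.0546) and with the trend over gene span removed 0.93 (adjusted p = 2.24e-05).

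Adam19, a sheddase of neuregulins, was at 1547, 1702, 1620 and 1266 in acute_noisy, 551, 693 and 1008 in acute_VCV and 2032, 1675, 1864 and 1848 in healthy_VCV, against 191, 397 and 705 in control_blank. It was high in acute_noisy and healthy_VCV, with acute_VCV in between. Adam19 rose by 2.01 ± 0.30 in acute_noisy (adjusted p = 9.39e-06), by 2.29 ± 0.30 in healthy_VCV (adjusted p = 2.84e-06) and by 1.53 ± 0.32 in healthy_noisy (adjusted p = 0.00126). In acute_VCV the difference of 0.95 ± 0.32 (adjusted p = 0.0232) was lost without acute_VCV_049 (0.71, adjusted p = 0.141) or control_blank_016 (0.46, 0.237), in a fit of the 2 groups alone (0.164) and with edgeR (0.78, 0.0522). Adam10, the other main sheddase, which cuts Notch and E-cadherin, was at 953, 1481, 1530 and 637 in acute_noisy, 427, 625 and 665 in acute_VCV and 1471, 1623, 1519 and 1501 in healthy_VCV, against 265, 421 and 818 in control_blank. Here healthy_VCV alone was wholly above control_blank. The difference was 1.76 ± 0.34 in healthy_VCV (adjusted p = 0.000152) and 1.26 ± 0.34 in acute_noisy (adjusted p = 0.00291), and the healthy_VCV value was 1.08 (adjusted p = 0.00146) with the trend over gene span removed.

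Adam8 and Adam28, sheddases of leukocytes, were lower in healthy_VCV against control_blank and in both chronic ventilated groups against control_chronic. In chronic_VCV the Adam8 difference of -0.86 ± 0.21 (adjusted p = 0.00904) was lost without chronic_VCV_069 (-0.78, adjusted p = 0.0519) or chronic_VCV_073 (-0.69, 0.0668). In chronic_noisy that of -0.63 ± 0.21 (adjusted p = 0.0238) was lost without chronic_noisy_075 (-0.55, 0.0866), chronic_noisy_079 (-0.62, 0.0645) or control_chronic_115 (-0.52, 0.0626) and with the trend over gene span removed (-0.49, 0.0725). Adam8, which neutrophils carry, was at 1989, 2191 and 2400 in healthy_noisy and 2135, 2157, 1656 and 1685 in healthy_VCV, against 5456, 2414 and 3210 in control_blank. Both uninjured groups lay below control_blank, in which control_blank_016 was far higher than the others. The difference was -0.88 ± 0.22 in healthy_VCV (adjusted p = 0.00177) and -0.67 ± 0.24 in healthy_noisy (adjusted p = 0.0334). Without control_blank_016 these were -0.56 (adjusted p = 0.0369) and -0.35 (adjusted p = 0.287), and the healthy_noisy call was also lost without healthy_noisy_029 (-0.60, 0.113) or healthy_noisy_061 (-0.67, 0.0622) and with the trend over gene span removed (-0.57, 0.062). The acute groups, at 2583, 2568, 2621 and 2668 in acute_noisy and 2824, 2267 and 4001 in acute_VCV, were not called against control_blank. Adam28 was at 33.4, 48.5 and 63.6 in chronic_noisy and 44.4, 29.4 and 12.2 in chronic_VCV, against 76.3, 85.2, 167, 109 and 90.0 in control_chronic. It was lower by -1.09 ± 0.42 in chronic_noisy (adjusted p = 0.0428), a call lost without chronic_noisy_075 (-0.86, 0.171), chronic_noisy_079 (-1.12, 0.0878), chronic_noisy_084 (-1.31, 0.0565), control_chronic_115 (-0.92, 0.101) or control_chronic_116 (-1.07, 0.072). It was lower by -1.96 ± 0.42 in chronic_VCV (adjusted p = 0.00347), and by -1.40 ± 0.44 in healthy_VCV relative to control_blank (adjusted p = 0.00878), where 1 library overlapped. In acute_VCV, at 126, 131 and 220, it was higher by 1.99 ± 0.44 (adjusted p = 0.000592) than in healthy_VCV, at 59.6, 65.8, 24.5 and 21.3.

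Adam12, a sheddase of activated mesenchymal cells, was at 24.4, 199, 170 and 33.0 in acute_noisy and 82.0, 75.2, 78.9 and 71.1 in healthy_VCV, against 1.62, 12.7 and 45.5 in control_blank. The range of acute_noisy overlapped with control_blank. Its differences of 2.63 ± 0.80 (adjusted p = 0.0068) and 2.71 ± 0.80 (adjusted p = 0.00582) both needed control_blank_016, without which they were 1.54 (adjusted p = 0.105) and 1.62 (adjusted p = 0.0959); the acute_noisy call was also lost in a fit of the 2 groups alone (0.0799). Adam15, found on epithelium and endothelium, ranged from 1452 to 2771 over all 28 libraries. It was lower in chronic_noisy than in control_chronic (-0.55 ± 0.13, adjusted p = 0.00282), and lower in healthy_VCV (-0.48 ± 0.14, adjusted p = 0.00482) and acute_noisy (-0.32 ± 0.14, adjusted p = 0.045) than in control_blank. It was higher in acute_VCV than in healthy_VCV (0.50 ± 0.14, adjusted p = 0.00354). It was not called with the trend over gene span removed in healthy_VCV (-0.15, adjusted p = 0.324), acute_noisy (-0.11, 0.463) or acute_VCV against healthy_VCV (0.16, 0.309). The acute_noisy call was also lost without acute_noisy_046 (-0.29, 0.0968), acute_noisy_047 (-0.31, 0.078), acute_noisy_050 (-0.25, 0.147), control_blank_016 (-0.35, 0.065) or control_blank_021 (-0.24, 0.191). The proteins without a working protease, Adam11 and Adam23, ranged from 7.59 to 42.0 and from 5.05 to 60.4. Adam4 and Adam4l1, for which no role is given here, ranged from 2.53 to 27.4 and from 4.97 to 86.8 and were called in none of the 12 comparisons.

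The ADAMTS proteases that cut versican and aggrecan, Adamts1, Adamts5, Adamts9 and Adamts15, were all higher in acute_noisy, and 3 of the 4 in acute_VCV and in healthy_VCV and 2 in healthy_noisy, against control_blank, where 31.3%, 20.6%, 29.3% and 17.5% of all genes were higher. Adamts1 was at 2569, 7289, 12726 and 6791 in acute_noisy, 2551, 6731 and 7156 in acute_VCV and 4639, 4087, 4178 and 3782 in healthy_VCV, against 643, 1040 and 1647 in control_blank. All these ventilated libraries exceeded control_blank, and within each acute group 1 library was much lower than the rest. The difference was 2.62 ± 0.47 in acute_noisy (adjusted p = 7.44e-05), 2.27 ± 0.51 in acute_VCV (adjusted p = 0.00127) and 2.01 ± 0.47 in healthy_VCV (adjusted p = 0.00102). In healthy_noisy, at 2118, 2710 and 4720, the difference of 1.54 ± 0.51 (adjusted p = 0.024) was lost without control_blank_016 (1.20, adjusted p = 0.137), control_blank_021 (1.54, 0.0547) or healthy_noisy_078 (1.21, 0.112).

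The 250 bases before the start of Adamts1 (RefSeq, GRCr8, chr11:38427385-38427634, minus strand) held 2 Sp1 matches and 1 TATA box match, 70 bases before the start. It is shown as the window of an ADAMTS gene called higher in all 4 of these groups, with capitals as above.
Adamts1: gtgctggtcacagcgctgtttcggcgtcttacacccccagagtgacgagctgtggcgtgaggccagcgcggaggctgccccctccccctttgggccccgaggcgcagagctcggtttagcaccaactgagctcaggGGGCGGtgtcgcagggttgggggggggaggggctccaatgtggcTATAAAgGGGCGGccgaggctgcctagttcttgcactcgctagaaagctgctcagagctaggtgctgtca

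Adamts5, known as the main aggrecanase of mouse cartilage, was at 177, 429, 812 and 169 in acute_noisy, 88.9, 180 and 213 in acute_VCV and 171, 157, 169 and 104 in healthy_VCV, against 19.4, 39.3 and 71.1 in control_blank. No library of these ventilated groups was as low as any of control_blank. Adamts5 rose by 3.04 ± 0.50 in acute_noisy (adjusted p = 2.6e-05), by 1.96 ± 0.53 in acute_VCV (adjusted p = 0.0058) and by 1.93 ± 0.50 in healthy_VCV (adjusted p = 0.00214), and by 2.57 ± 0.50 in acute_noisy relative to healthy_noisy, at 49.6, 39.8 and 75.7 (adjusted p = 0.00136). Adamts9 was at 1610.2, 4779, 6514 and 3067 in acute_noisy and 1518, 3912 and 6192 in acute_VCV, against 1328, 1118 and 1301 in control_blank. In each acute group 1 library stood near control_blank and the others well above it. The difference was 1.50 ± 0.41 in acute_noisy (adjusted p = 0.00316) and 1.42 ± 0.44 in acute_VCV (adjusted p = 0.0135), the acute_VCV call being lost without acute_VCV_045 (1.30, adjusted p = 0.0528) or acute_VCV_049 (0.97, 0.121) and in a fit of the 2 groups alone (0.0537).

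Adamts15 had its highest levels in healthy_noisy, at 3875, 4178 and 5405, and was at 3544, 2966, 3400 and 3231 in healthy_VCV and 4002, 3177, 2670 and 3009 in acute_noisy, against 2593, 1642 and 1539 in control_blank. It rose by 1.25 ± 0.28 in healthy_noisy (adjusted p = 0.00247). The differences of 0.81 ± 0.27 in healthy_VCV (adjusted p = 0.0126) and 0.76 ± 0.27 in acute_noisy (adjusted p = 0.0168) were lost without control_blank_021 (0.71, adjusted p = 0.0552, and 0.67, adjusted p = 0.0688) or control_blank_074 (0.67, 0.062, and 0.62, 0.0788), and that of acute_noisy without acute_noisy_046 (0.65, 0.0514). Of the procollagen-processing genes, Adamts3 had low counts, at 67.7, 123, 104 and 40.3 in acute_noisy, 38.9, 45.3 and 69.3 in acute_VCV, 10.4, 33.8 and 16.4 in healthy_noisy and 38.9, 31.0, 99.9 and 57.7 in healthy_VCV, against 3.24, 2.21 and 4.79 in control_blank. All ventilated libraries listed here were above control_blank. The differences of 4.18 ± 0.51 in acute_noisy (adjusted p = 1.22e-06), 3.56 ± 0.55 in acute_VCV (adjusted p = 3.93e-05), 2.15 ± 0.55 in healthy_noisy (adjusted p = 0.00536) and 3.61 ± 0.51 in healthy_VCV (adjusted p = 6.51e-06) depend on the pseudocount: with 10 in place of 1 they were 2.71, 2.16, 1.10 and 2.22, all still called. Adamts3 also rose by 2.47 ± 0.49 in chronic_noisy relative to control_chronic (adjusted p = 0.000807). In chronic_VCV it rose by 1.63 ± 0.49 (adjusted p = 0.0284), a call lost without chronic_VCV_073 (1.19, 0.172), control_chronic_113 (1.50, 0.0587) or control_chronic_114 (1.36, 0.0688). Adamts2 was higher in healthy_VCV and healthy_noisy and in both chronic groups, each against its unventilated group, and Adamts14 was called nowhere.

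Adamts12, a protease that also cuts cartilage oligomeric matrix protein, was at 256, 802, 1004 and 263 in acute_noisy and 686, 599, 671 and 721 in healthy_VCV, against 21.9, 50.9 and 133 in control_blank, and at 359, 767 and 1006 in chronic_noisy, against 127, 139, 77.7, 89.2 and 186 in control_chronic. These ventilated groups lay wholly above their unventilated ones. It rose by 3.16 ± 0.53 in acute_noisy (adjusted p = 3.63e-05), by 3.63 ± 0.53 in healthy_VCV (adjusted p = 8.99e-06) and by 2.46 ± 0.51 in chronic_noisy (adjusted p = 0.0011). Adamts17 was at 258, 298, 208 and 153 in healthy_VCV, against 12.2, 27.7 and 60.7 in control_blank, a difference of 2.97 ± 0.47 (adjusted p = 1.93e-05). Adamtsl2, which lacks a protease domain and binds microfibril proteins, was at 2065, 1751 and 1859 in chronic_noisy and 2068, 3269 and 2146 in chronic_VCV, against 1026, 642, 494, 1129 and 516 in control_chronic. Both chronic ventilated groups lay above control_chronic, with differences of 1.39 ± 0.36 (adjusted p = 0.00543) and 1.76 ± 0.36 (adjusted p = 0.00276).

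**Figure D4:**
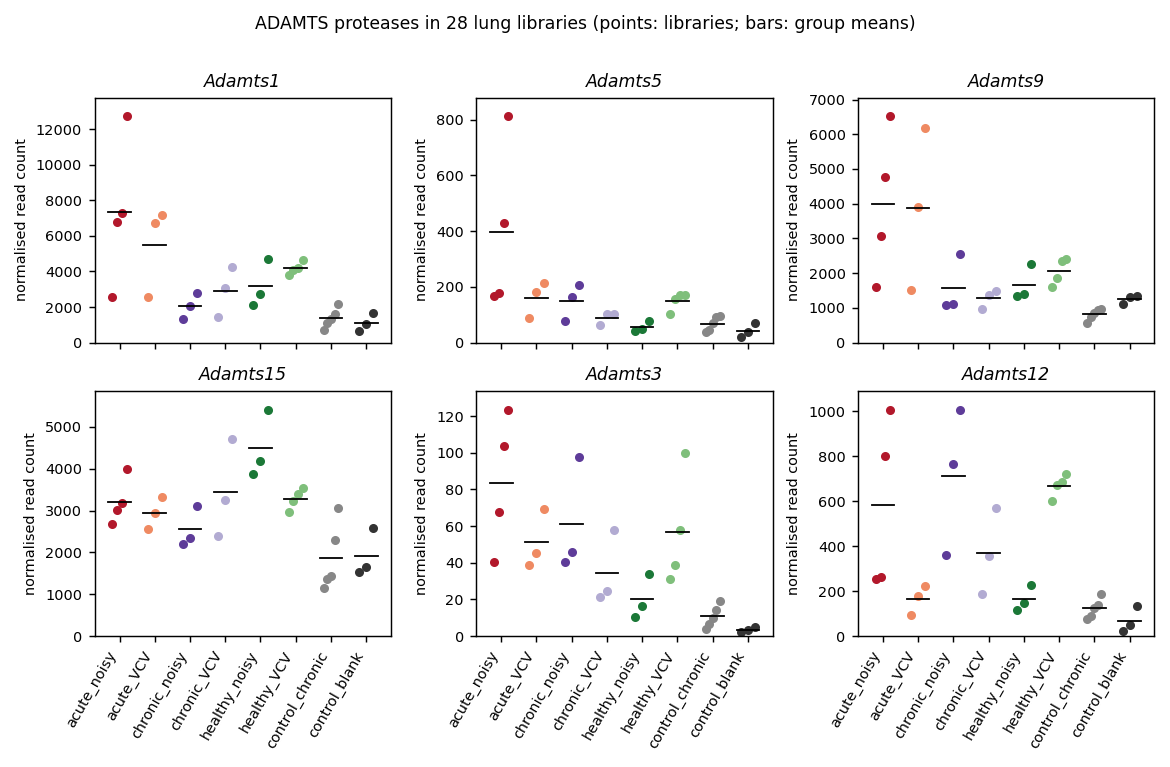
Normalised read counts of Adamts1, Adamts5, Adamts9, Adamts15, Adamts3 and Adamts12 in each of the 28 libraries (points) with group means (bars). For Adamts5 the acute_noisy libraries, from 169 to 812, lie above those of control_blank, from 19.4 to 71.1.

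Variable ventilation was set against constant ventilation within each injury state. After acute injury, acute_noisy against acute_VCV had 11 of the 46 genes higher and 4 lower, with 24.2% of all genes called and medians of 0.29 over the 46 and -0.05 over all genes. Genes higher included Itga4 (1.82 ± 0.42, adjusted p = 0.00581), Adam19 (1.07 ± 0.30, adjusted p = 0.0143) and Itgb3 (1.41 ± 0.40, adjusted p = 0.016), and Itga7 was lower (-0.95 ± 0.22, adjusted p = 0.00562). Adamts12 (1.64 ± 0.53, adjusted p = 0.0296) and Adamts17 (1.40 ± 0.47, adjusted p = 0.034) were also higher, and Itgb1bp2 (-1.13 ± 0.34, adjusted p = 0.0209), Itgb3bp (-0.69 ± 0.21, adjusted p = 0.0218) and Itgb1bp1 (-0.46 ± 0.13, adjusted p = 0.0137) lower. Without acute_VCV_040 these 5 were at 1.27 (adjusted p = 0.178), 1.43 (0.104), -0.86 (0.153), -0.58 (0.135) and -0.39 (0.0945), and without acute_noisy_050 the first 4 were at 1.29 (0.107), 1.22 (0.0979), -1.07 (0.0542) and -0.54 (0.0838). Without acute_VCV_045 Adamts12 was at 1.74 (0.0541), Adamts17 at 1.21 (0.114) and Itgb1bp1 at -0.41 (0.0566). Without acute_noisy_047 Adamts12 was at 1.39 (0.0862) and Adamts17 at 1.28 (0.0804), and without acute_noisy_046 Itgb1bp2 was at -0.94 (0.0601). The values of Itga4, Adam19, Itgb3 and Itga7 in each library stand above, and none of these 4 overlapped between acute_noisy and acute_VCV. Without acute_VCV_040 Itga4, Adam19 and Itgb3 were 1.57 (adjusted p = 0.0549), 0.87 (0.109) and 1.06 (0.134), and without acute_noisy_050 Itgb3 was 1.25 (0.0526). The count of 15 became 1 without acute_VCV_040, 7 without acute_VCV_045, 7 without acute_noisy_047 and 4 without acute_noisy_050, and it was 0 in a fit of these 2 groups alone and 6 (3 higher, 3 lower) with the trend over gene span removed, beside 13.2% of genes with a span. None of the 5 genes called higher in all 4 acute comparisons was called between the modes in the main fit. Itgb1 differed by -0.21 ± 0.14 (adjusted p = 0.267) and Itgb4 by -0.27 ± 0.19 (adjusted p = 0.291). With the trend over gene span removed Itgb1 was called lower in acute_noisy (-0.37, adjusted p = 0.0433). Itgam differed by 0.98 ± 0.54 (adjusted p = 0.18) and Adam9 by 0.40 ± 0.28 (adjusted p = 0.299).

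In uninjured lungs the direction was the other one: healthy_noisy against healthy_VCV had 0 genes higher and 7 lower (Adam10, Adam12, Adamts12, Adamts17, Itga1, Itga4 and Itga6), with 10.3% of all genes called and medians of -0.42 over the 46 and 0.01 over all genes. None of the 7 overlapped between the groups. The lowest differences were those of Adam12 (-2.88 ± 0.80, adjusted p = 0.0354), Itga1 (-2.65 ± 0.64, adjusted p = 0.0275), Adamts12 (-2.08 ± 0.53, adjusted p = 0.03) and Adamts17 (-1.75 ± 0.47, adjusted p = 0.0331). Most fits that left out 1 library lost the calls. None was left without any 1 of healthy_VCV_025, healthy_VCV_057, healthy_VCV_060, healthy_noisy_029 or healthy_noisy_061, and 2 without healthy_VCV_062. Without healthy_noisy_078, on the other hand, 9 genes were called. With the number series as a covariate or within series 15, 0 were called. With the trend over gene span removed 2 were left, beside 2.49% of genes with a span, and with quantile normalisation 9 were called, 1 of them higher. In a fit of these 2 groups alone 19 genes were called, 3 higher and 16 lower. The difference between the modes was itself tested between acute injury and none, and 18 of the 46 genes had a higher and 5 a lower value of acute_noisy minus acute_VCV than of healthy_noisy minus healthy_VCV, with 39.0% of all genes called. The largest were Itga1 (4.47 ± 0.90, adjusted p = 0.000969), Adam12 (4.08 ± 1.13, adjusted p = 0.00687) and Adamts12 (3.72 ± 0.75, adjusted p = 0.001). With the trend over gene span removed 14 genes were called, with 26.6% of all genes with a span. These groups differ in number series, acute_VCV being wholly in series 12 and healthy_noisy in series 15. Number series and mode therefore cannot be told apart in this test.

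After chronic injury no gene of the 46 was called between chronic_noisy and chronic_VCV, with 2.43% of all genes called by limma. At an unadjusted p under 0.05 limma had 11 of 46 (23.9%) beside 23.5% of all genes, and edgeR had 11 with 0 past the adjusted threshold. Itga4, at the values above, differed by 1.61 ± 0.45 (adjusted p = 0.0585), Itgal by 1.02 ± 0.36 (adjusted p = 0.103), Itgb2 by 0.71 ± 0.28 (adjusted p = 0.132) and Itgam by 1.25 ± 0.57 (adjusted p = 0.193). The 3 libraries of chronic_noisy were above those of chronic_VCV for each of these 4, none of them called. Itgax overlapped, at 896, 1088 and 1470 in chronic_noisy against 684, 669 and 1291 in chronic_VCV. How many of all genes lay apart in this way was not counted. The response to constant ventilation differed between chronically injured and uninjured lungs for 13 genes: relative to its unventilated group, the difference was higher in chronic injury for 1 (Itgb1bp2, 1.61 ± 0.48, adjusted p = 0.0196) and lower for 12, with 23.9% of all genes called. Adamts17 (-3.43 ± 0.65, adjusted p = 0.00464) had the largest such difference; that of Itga1 (-3.13 ± 0.88, adjusted p = 0.016) was lost without chronic_VCV_067 (-2.79, adjusted p = 0.0648) or control_blank_016 (-2.54, 0.0814), and that of Itgb1bp2 without chronic_VCV_067 (1.07, 0.0959) or with the trend over gene span removed (1.25, 0.0592). The count of 13 became 3 without chronic_VCV_067 and 4 without control_blank_016. Since control_chronic lay wholly in number series 18 and control_blank in series 12, number series and response cannot be told apart here. Under variable ventilation the same test called no gene of the 46 and 2.66% of all genes by limma, with 4 of 46 at an unadjusted p under 0.05 beside 15.1% of all genes, and edgeR had 5 and 0 past the adjusted threshold.

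Genes with a long genomic span moved together across libraries, and 23 of the 46 genes lie in the longest of 4 equal classes of the 11384 tested genes with a span in the GRCr8 annotation. The gap between the longest and the shortest class was -0.17 to 0.36 in acute_noisy and -0.78 to -0.39 in acute_VCV, 0.30 to 0.72 in chronic_noisy and -0.24 to 0.21 in chronic_VCV, and -0.19 to 0.06 in healthy_noisy and 0.51 to 0.65 in healthy_VCV. It was -0.32 to 0.02 in control_chronic and -0.87 to -0.08 in control_blank. The median log2 deviation of the 23 long genes was -1.59 in control_blank_016, the lowest of all, and 0.97 in acute_noisy_047, while that of the 12 genes in the shorter 2 classes was between -0.46 and 0.30 in every library. With the trend over span removed library by library, the 46 genes had 27 higher and 4 lower in acute_noisy, 17 and 2 in acute_VCV, 21 and 7 in healthy_VCV and 10 and 6 in healthy_noisy against control_blank, beside 59.7%, 41.9%, 52.8% and 31.6% of all genes with a span called. The source of the span gap was not tested.

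**Figure D5:**
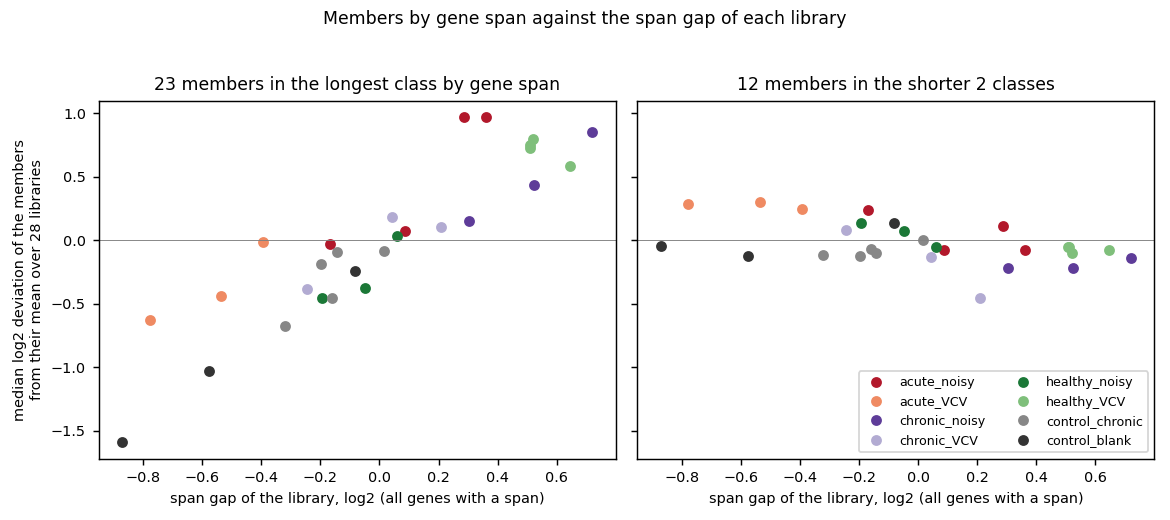
Median log2 deviation of the 23 genes in the longest class by span (left) and of the 12 genes in the shorter 2 classes (right) against the span gap over all genes, 1 point for each of the 28 libraries, coloured by group. In the left panel control_blank_016 stands lowest at -1.59, and in the right panel all libraries lie between -0.46 and 0.30.

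Genes that work with these receptors and proteases were taken from lists. Of 23 tested substrates and regulators of ADAM proteases, 16 were higher and 1 lower in acute_noisy and 15 higher and 0 lower in acute_VCV against control_blank, with medians of 1.24 and 0.98. Over all genes 31.3% were higher and 28.4% lower in acute_noisy and 20.6% and 16.7% in acute_VCV, shares that stand beside each of the 4 lists here. Those with the smallest p included Tnfrsf1a, the TNF receptor that Adam17 sheds (3.03-fold in acute_noisy, adjusted p = 2.82e-07, and 3.48-fold in acute_VCV, adjusted p = 7.14e-07) and Rhbdf2, the iRhom needed for Adam17 to mature (1.26 ± 0.21, adjusted p = 3.49e-05, and 1.46 ± 0.23, adjusted p = 4.27e-05). Of 11 substrates and inhibitors of ADAMTS proteases, 7 were higher and 1 lower in acute_noisy and 5 higher and 1 lower in acute_VCV. Among them Timp1, a metalloprotease inhibitor, rose by 3.57 ± 0.51 in acute_noisy (adjusted p = 5.89e-06) and by 4.42 ± 0.54 in acute_VCV (adjusted p = 4.28e-06). Another such inhibitor, Timp4, was the lower gene, at -2.80 ± 0.55 in acute_noisy (adjusted p = 0.000182) and -2.35 ± 0.59 in acute_VCV (adjusted p = 0.0034). Of 15 integrin ligands, 7 were higher and 1 lower in acute_noisy and 9 higher and 1 lower in acute_VCV, and the 8 called in acute_noisy are a smaller share than the 59.8% of all genes. Called ligands included the laminin chain Lama5 (1.08 ± 0.18, adjusted p = 4.34e-05, and 1.06 ± 0.20, adjusted p = 0.000241). Of 22 adaptors and kinases at integrin tails, 14 were higher and 2 lower in acute_noisy and 9 higher and 0 lower in acute_VCV, among them the kinase Ptk2b (1.20 ± 0.21, adjusted p = 5.23e-05, and 1.12 ± 0.23, adjusted p = 0.000478) and the leukocyte kindlin Fermt3 (0.84 ± 0.18, adjusted p = 0.000511, and 0.87 ± 0.20, adjusted p = 0.00138).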

How the data were processed

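Gene-level normalised read counts of 28 libraries were analysed. The deposited values are a signal that the authors made by dividing read counts by library size factors; per the submitters' processing notes the tools were CASAVA 1.8.0, BWA, bedtools 2.11 and DESeq 1.8.3 on build rn4, and per the file header the gene models were Ensembl version 67. At least 99.994% of the values in each library were whole multiples of 1 read within 0.1 read, so read totals were recovered. Values were tested as log2(value + 1) for the 14908 genes with a mean of at least 10, with limma 3.58.1 in R 4.3.3 (intensity trend, robust prior, 1 mean per group over all 28 libraries, two-sided, Benjamini-Hochberg adjusted over all genes, threshold 0.05). Standard errors are those of limma, and a fold change on this scale understates the change of low genes. Fits used the tools numpy 2.4.6, pandas 2.3.3 and matplotlib 3.10.9 under Python 3.11.15 for tables and figures, and were tested on simulated data.

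Groups came from the labels. The alternatives were edgeR 4.0.16 on the recovered reads, quantile normalisation, 10 as the pseudocount, genes left unfiltered for low values, only the groups compared, the number series as a covariate, number series 15 alone, each library left out in turn, the 2 shallowest control_chronic libraries left out and, added after the data were seen, a trend over gene span removed. The span, from the RefSeq annotation of GRCr8 matched by symbol, is not from the files' build and served only to rank genes into 4 classes and to fit that trend. The genes, roles and lists were chosen with earlier results of these data known. Named with values were the leukocyte integrins, a fixed set of members (of which Itga8, Itgav and Adamts4 were not in the set), in each comparison of groups the 4 highest and 4 lowest called differences without overlap, and 3 per direction in each difference between contrasts. Promoter windows were chosen after their genes' values were seen, and 14 motifs were searched, of which 4 are marked after the matches were seen.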

Additional observations from a re-analysis of the deposited data

Results flagged for a closer look

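Single libraries stood apart from the rest of their group for 4 genes. Adamtsl2 was at 7141 in acute_noisy_053, above the other 3 acute_noisy libraries, and Itgb2 was at 3129 in the same library, below the other 3. Adam8 was at 3605 in control_chronic_115, above the other 4 control_chronic libraries, and Itgb3bp was at 57.8 in control_chronic_117, below the other 4. Groups of 4 or more libraries were checked 99 times, and chance alone flags about 1 in 20 of them.

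The value of variable minus constant ventilation differed between acute injury and none for Itga1 (by 4.47 on the log2 scale), Adam12 (4.08), Adamts12 (3.72), Itga7 (-0.96), Itgb3bp (-1.32) and Itgb1bp2 (-1.67). The effect of constant ventilation relative to the unventilated group differed between chronic injury and none for Itgb1bp2 (1.61), Itga1 (-3.13), Adam12 (-3.24) and Adamts17 (-3.43). The call of Adam12 in the chronic contrast was lost without control_blank_016 (-2.15, adjusted p = 0.173) and without chronic_VCV_067 (-2.62, adjusted p = 0.134), and 8 further single libraries also ended it, as did edgeR (-2.32, adjusted p = 0.105) and removal of the trend over gene span (-2.44, 0.0848). With that trend removed Itgb1bp2 was not called in the acute contrast (-1.08, adjusted p = 0.0856) or the chronic one (1.25, 0.0592).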

How the results depend on the processing

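The log2 differences checked for sign were those of named genes, most of them called, and none changed sign in any alternative. The balance of higher and lower calls did turn in some comparisons, as given below. Counts of called genes moved by more than 1.5 times as follows. With only the groups compared, they were 10 in acute_VCV against control_blank (all higher), 5 in healthy_noisy against control_blank (all higher), 2 in control_chronic against control_blank (1 higher), 0 in acute_noisy against healthy_noisy, 0 in acute_noisy against acute_VCV, 19 in healthy_noisy against healthy_VCV and 1 in chronic_noisy against chronic_VCV. Without the 2 shallowest control_chronic libraries they were 3 in control_chronic against control_blank and 6 in chronic_VCV against control_chronic. With the number series as a covariate they were 4 in acute_noisy against healthy_noisy and 0 in healthy_noisy against healthy_VCV, and within series 15 they were 0 in both. With the span trend removed they were 6 in acute_noisy against acute_VCV, 2 in healthy_noisy against healthy_VCV, 14 for the mode by acute injury and 8 for constant ventilation by chronic injury, and with quantile normalisation 1 in chronic_noisy against chronic_VCV. Leaving out 1 library gave 29 to 33 in acute_noisy and 12 to 23 in acute_VCV, 26 to 29 in healthy_VCV, 7 to 22 in healthy_noisy and 1 to 14 in control_chronic, each against control_blank. It gave 13 to 22 in chronic_noisy and 5 to 10 in chronic_VCV against control_chronic, 22 to 25 in acute_VCV against healthy_VCV and 8 to 25 in acute_noisy against healthy_noisy. Between modes it gave 1 to 19 after acute injury, 0 to 9 without injury and 0 to 0 after chronic injury, and for the differences between contrasts 18 to 27 (mode by acute injury), 3 to 18 (constant ventilation by chronic injury) and 0 to 0 (variable ventilation by chronic injury). The share of calls that were higher moved by over 10 points as follows. With only the groups compared it was 100% in acute_VCV (89.5% as reported), 100% in healthy_noisy (76.5%) and 50% in control_chronic (62.5%), each against control_blank, and 15.8% in healthy_noisy against healthy_VCV (0%), where quantile normalisation gave 11.1%. With edgeR it was 64.3% in healthy_noisy and 16.7% in control_chronic against control_blank and 18.2% for constant ventilation by chronic injury (7.69%). With the span trend removed it was 62.5% in healthy_noisy against control_blank, 63.2% in acute_VCV against healthy_VCV (46.2%) and 50% in acute_noisy against acute_VCV (73.3%). Without the 2 shallowest control_chronic libraries it was 50% in chronic_VCV against control_chronic (72.7%). Leaving out 1 library gave shares over 10 points away in healthy_noisy (100%) and control_chronic (0% to 78.6%) against control_blank, in chronic_VCV (60% to 62.5%) and chronic_noisy (94.1%) against control_chronic, in acute_noisy against acute_VCV (0% to 57.1%) and for constant ventilation by chronic injury (18.2% to 27.3%). The median of all genes in healthy_VCV against control_blank was -0.13 with quantile normalisation and -0.03 as reported. No paired analysis was possible because no replicate number occurs in more than 1 group. The depth of control_chronic_113 was the lowest, and genes with counts near the minimum of 10 are the least precise.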
